A study of Mus musculus with 24 samples.

Results

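Crypt stem cell genes of the mouse duodenum were followed in RNA-seq libraries of mice that cannot make active vitamin D. The 10 genes, Lgr5, Olfm4, Ascl2, Axin2, Smoc2, Rgmb, Sox9, Tnfrsf19, Lrig1 and Bmi1, were taken by symbol from the 25410 gene symbols in the deposited tables. Rows that shared a symbol were summed, which concerned Tnfrsf19, with 2 rows, of which 1 was at or near 0 throughout. All mice were male, 8 weeks old and lacked Cyp27b1, the enzyme that makes the hormone 1,25-dihydroxyvitamin D3 (1,25D), so no group had a working Cyp27b1. From weaning at 3 weeks they ate a purified diet without vitamin D, holding 0.47% calcium and 0.3% phosphorus (the normal diet), or that diet with 20% lactose, 2% calcium and 1.25% phosphorus (the rescue diet). Mice then received either 1,25D at 2 ng per g body weight or vehicle, and duodenum was taken 6 hours later. The 4 groups of 6 libraries were 1,25D on the rescue diet, 1,25D on the normal diet, vehicle on the rescue diet and vehicle on the normal diet. The labels name no animal for a library, so a p-value here speaks of the scatter among these libraries, which may be in part technical.

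The epithelium of the small intestine is renewed from stem cells at the base of the crypts. Wnt signals, amplified by R-spondin binding to Lgr5 and its relative Lgr4, keep these cells in the stem state, and Notch signals from neighbouring Paneth cells hold them back from the secretory fate. BMP signals, which are strongest toward the villus, favour differentiation. Lgr5 is the R-spondin receptor that marks the crypt base columnar cell, and Olfm4, Ascl2, Smoc2, Rgmb, Axin2, Sox9 and Tnfrsf19 are enriched there to different degrees. Lrig1 and Bmi1 are also found in cells above the crypt base, and Bmi1 is made in many cell types outside the crypt. The vitamin D receptor, Vdr, is made along the whole crypt-villus axis.

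RNA was isolated from whole duodenum, so fewer cells of a type and less RNA per cell cannot be told apart. The values are RPKM, read numbers scaled to gene length and to the size of the library, which is a level per length and allows levels to be set beside each other between genes. Read totals are not given in the tables, so the absolute depth is unknown, and the steps between low values placed the deepest library at 2.78 times the reads of the shallowest. The deepest, normal vehicle replicate 6, matched the joint estimate in only 1 of its 23 library pairs, so this ratio is uncertain. Cyp24a1, the enzyme that breaks down 1,25D and a direct target of its receptor, averaged 724 ± 219 RPKM after 1,25D and 1.08 ± 1.47 RPKM after vehicle on the normal diet (SD, n = 6 each), so injected and vehicle libraries separated as labelled. Cyp24a1 averaged 473 ± 299 RPKM after 1,25D and 0.284 ± 0.285 RPKM after vehicle on the rescue diet (SD, n = 6 each). Exocrine pancreas genes took 0.0106% to 20.9% of all RPKM in a library, the most in normal vehicle replicate 6. Genes of villus enterocytes, proliferating crypt cells, Paneth cells, smooth muscle and fibroblasts had summed levels above 0 in every library.

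Promoter windows are shown here for the members that the results turn on and for which RefSeq (build GRCm38.p6) supplied a window of 300 bases, from 250 before to 50 after the start of transcription. Windows were found for 7 of the 10 members, Olfm4, Ascl2, Axin2, Rgmb, Tnfrsf19, Lrig1 and Bmi1, with 3 for Rgmb and 2 for Tnfrsf19. Capitals mark matches to the letters searched on both strands: CTTTGAT for TCF/LEF, the Wnt-dependent factors, the hexamers AGGTCA or GGGTCA, likewise AGTTCA or GGTTCA, for the core of a vitamin D receptor site, TGGGAA for the Notch factor RBPJ, and CAGCTG for the E-box that Ascl2 binds. Ascl2 is shown as the member with the largest difference after 1,25D, Olfm4 as the most abundant, Tnfrsf19 as the only member whose windows held the TCF/LEF letters, and Bmi1 as the member that stood apart from the others.
Ascl2, chr7:142969215-142969514, minus strand: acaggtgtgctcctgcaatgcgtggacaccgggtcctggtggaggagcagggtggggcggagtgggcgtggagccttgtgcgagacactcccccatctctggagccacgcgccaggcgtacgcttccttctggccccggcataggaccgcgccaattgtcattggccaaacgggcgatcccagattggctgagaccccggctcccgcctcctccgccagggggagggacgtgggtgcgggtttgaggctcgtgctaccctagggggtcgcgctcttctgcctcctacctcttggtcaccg
Olfm4, chr14:80000052-80000351, plus strand: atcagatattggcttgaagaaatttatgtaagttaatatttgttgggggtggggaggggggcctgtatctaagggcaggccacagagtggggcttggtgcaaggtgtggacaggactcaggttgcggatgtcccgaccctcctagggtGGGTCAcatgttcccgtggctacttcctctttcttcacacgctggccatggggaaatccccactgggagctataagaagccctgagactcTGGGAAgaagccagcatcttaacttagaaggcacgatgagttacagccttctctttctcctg
Tnfrsf19, chr14:61037938-61038237, minus strand: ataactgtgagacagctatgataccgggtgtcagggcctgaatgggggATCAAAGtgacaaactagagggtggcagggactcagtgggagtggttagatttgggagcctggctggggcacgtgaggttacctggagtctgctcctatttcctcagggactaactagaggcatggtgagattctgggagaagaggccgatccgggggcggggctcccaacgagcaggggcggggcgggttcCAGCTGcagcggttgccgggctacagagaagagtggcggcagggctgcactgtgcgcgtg
Bmi1, chr2:18676768-18677067, plus strand: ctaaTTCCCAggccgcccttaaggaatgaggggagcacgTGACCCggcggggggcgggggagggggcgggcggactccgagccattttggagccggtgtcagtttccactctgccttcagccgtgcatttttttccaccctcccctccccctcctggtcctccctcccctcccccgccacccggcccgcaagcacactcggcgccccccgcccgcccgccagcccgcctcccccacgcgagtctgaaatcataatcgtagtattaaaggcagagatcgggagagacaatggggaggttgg
In the Olfm4 window GGGTCA began 102 bases and TGGGAA 12 bases before the start. In the Bmi1 window TGACCC, the reverse strand of GGGTCA, began 211 bases and TTCCCA, the reverse strand of TGGGAA, 246 bases before the start. The Tnfrsf19 window shown held ATCAAAG, the reverse strand of the TCF/LEF letters, and CAGCTG, and its other window held TGACCC. None of the letters occurred in the windows of Ascl2, Axin2, Rgmb or Lrig1. Over all 32851 windows of the same length, the TCF/LEF letters occurred in 3.7%, GGGTCA in 13.7%, AGGTCA in 16.3%, AGTTCA in 14.0%, GGTTCA in 10.4%, TGGGAA in 25.6% and CAGCTG in 16.3%. A match describes these letters in this window and is not a measured binding site.

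The members covered a wide range of levels. Over all 24 libraries Olfm4, a secreted glycoprotein of crypt base cells, averaged 384 RPKM. Smoc2, a secreted calcium-binding matrix protein, averaged 26.0 ± 7.25 RPKM (SD, n = 24). Lrig1, a membrane protein that damps ErbB receptors, averaged 24.7 ± 4.77 RPKM (SD, n = 24). The ranges of these neighbours in the order overlapped, and whether they differed within the same libraries was not tested. Rgmb, a BMP co-receptor, averaged 12.0 RPKM, Bmi1, a subunit of Polycomb repressive complex 1, 10.6 RPKM, Axin2, a negative regulator and target of Wnt signalling, 10.1 RPKM, and Sox9, a transcription factor of crypt progenitors and Paneth cells, 9.55 RPKM. Their ranges overlapped widely. Tnfrsf19, a receptor of the TNF receptor family and a Wnt target, averaged 3.16 RPKM. Ascl2, the transcription factor that sets the Lgr5-positive state, averaged 1.68 RPKM, and Lgr5 itself 1.56 RPKM.

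Low levels need a yardstick in these libraries, because genes that duodenum is not known to use also had reads. Over 1456 olfactory and vomeronasal receptor genes, the median RPKM per library had a lowest, median and highest value of 0.388, 1.27 and 1.55 after 1,25D and 0.284, 1.05 and 2.50 after vehicle on the normal diet. The same values were 0.192, 1.71 and 3.98 after 1,25D and 0.399, 0.817 and 2.55 after vehicle on the rescue diet. Lgr5 lay above the median of the receptor genes of its own library in 13 of 24 libraries and above their 90th percentile in 7. Ascl2 lay above that median in 14 libraries and above the 90th percentile in 6, and Tnfrsf19 in 23 and 12. The other 7 members lay above the receptor median in all 24 libraries. Among the receptor genes of its own library, Lgr5 had a median percentile of 39.4 after 1,25D and 74.5 after vehicle on the normal diet. On the rescue diet these were 25.8 and 80.9. The values for Ascl2 were 29.5 and 86.4 on the normal diet and 21.6 and 88.4 on the rescue diet. The levels of Lgr5 and Ascl2 lay within the range of these receptor genes in many libraries, and how much of their reads came from that background was not tested.

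**Figure D1:**
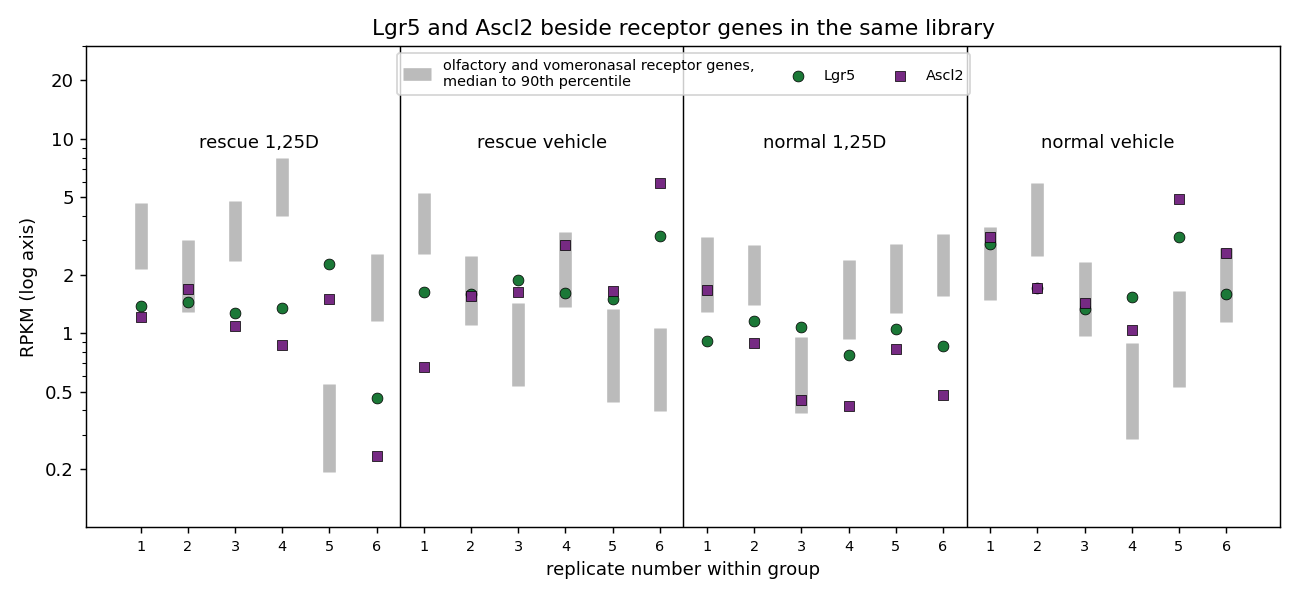
RPKM on a log axis for Lgr5 (circles) and Ascl2 (squares) in each of the 24 libraries, grouped by diet and injection; grey bars run from the median to the 90th percentile of 1456 olfactory and vomeronasal receptor genes in the same library. Lgr5 lies above the lower end of its bar in 13 of 24 libraries and Ascl2 in 14.

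On the normal diet, 1,25D against vehicle, Lgr5 and Ascl2 had the largest differences among the members, and 9 of the 10 members had a fold change below 0. Lgr5 had a lowest, median and highest value of 0.768, 0.978 and 1.16 RPKM after 1,25D and 1.33, 1.64 and 3.13 RPKM after vehicle. Every library after 1,25D was below every library after vehicle, a lower non-overlap that 0.0850% of all 20006 tested genes had. The log2 fold change was -0.73 (SE 0.22, 95% interval -1.18 to -0.28), with an unadjusted p of 0.00256 in limma and a Benjamini-Hochberg adjusted p of 0.0903 over all genes, so Lgr5 missed the threshold of 0.05. Fold changes compare log2(RPKM + 0.5), and for genes as low as Lgr5 and Ascl2 the added 0.5 makes them smaller than those of the RPKM themselves. By the median percentiles given above, both genes lay lower among the receptor genes after 1,25D than after vehicle, but the ranges overlapped on both diets. On the normal diet Lgr5 ran from 22.6 to 93.3 after 1,25D and from 32.2 to 99.0 after vehicle. Ascl2 ran from 11.4 to 62.4 after 1,25D and from 32.1 to 99.8 after vehicle. The receptor median of a library was itself 1.27 RPKM after 1,25D and 1.05 RPKM after vehicle (group medians), so a percentile depends on both.

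Ascl2 had 0.421, 0.654 and 1.66 RPKM (lowest, median and highest) after 1,25D and 1.04, 2.13 and 4.88 RPKM after vehicle. The groups overlapped, although the medians lay far apart. The log2 fold change was -1.14 (SE 0.35, interval -1.86 to -0.42), with an adjusted p of 0.106. Of 10 members, 0 passed the adjusted threshold in limma on the normal diet, where 1.84% of all tested genes did and 0.0550% passed as lower. At an unadjusted p under 0.05, 2 of 10 members, Lgr5 and Ascl2, were lower, against 2.22% of all genes that were lower by that rule.

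Olfm4 had 172, 262 and 324 RPKM after 1,25D and 219, 413 and 482 RPKM after vehicle on the normal diet. Every library after 1,25D was below the vehicle median, and the groups overlapped. Its log2 fold change was -0.51 (SE 0.27, interval -1.06 to 0.04, adjusted p 0.483). Axin2 had 4.49, 6.14 and 11.3 RPKM after 1,25D and 6.00, 9.31 and 16.5 RPKM after vehicle, a log2 fold change of -0.57 (SE 0.33, interval -1.26 to 0.12, adjusted p 0.577). Sox9 had 4.78, 8.09 and 9.08 RPKM after 1,25D and 6.59, 10.4 and 18.2 RPKM after vehicle, a log2 fold change of -0.43 (SE 0.25, interval -0.94 to 0.08, adjusted p 0.564). For Axin2 and Sox9 too the groups overlapped and the interval included 0.

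The remaining members differed less. Tnfrsf19 had a median of 2.49 RPKM after 1,25D and 2.78 RPKM after vehicle, with a log2 fold change of -0.32 (interval -0.80 to 0.15). Smoc2, Rgmb and Lrig1 had log2 fold changes of -0.09, -0.12 and -0.11, and the interval for Lrig1, -0.45 to 0.22, was the narrowest of the 3. Bmi1 was the single member above 0, at 0.10 (interval -0.16 to 0.36), with medians of 10.3 RPKM after 1,25D and 9.88 RPKM after vehicle. Over the 10 members the median log2 fold change was -0.38, beside 0.05 over all tested genes. All 10 members entered the test, and 8 of them reached 0.5 RPKM in all 24 libraries.

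**Figure D2:**
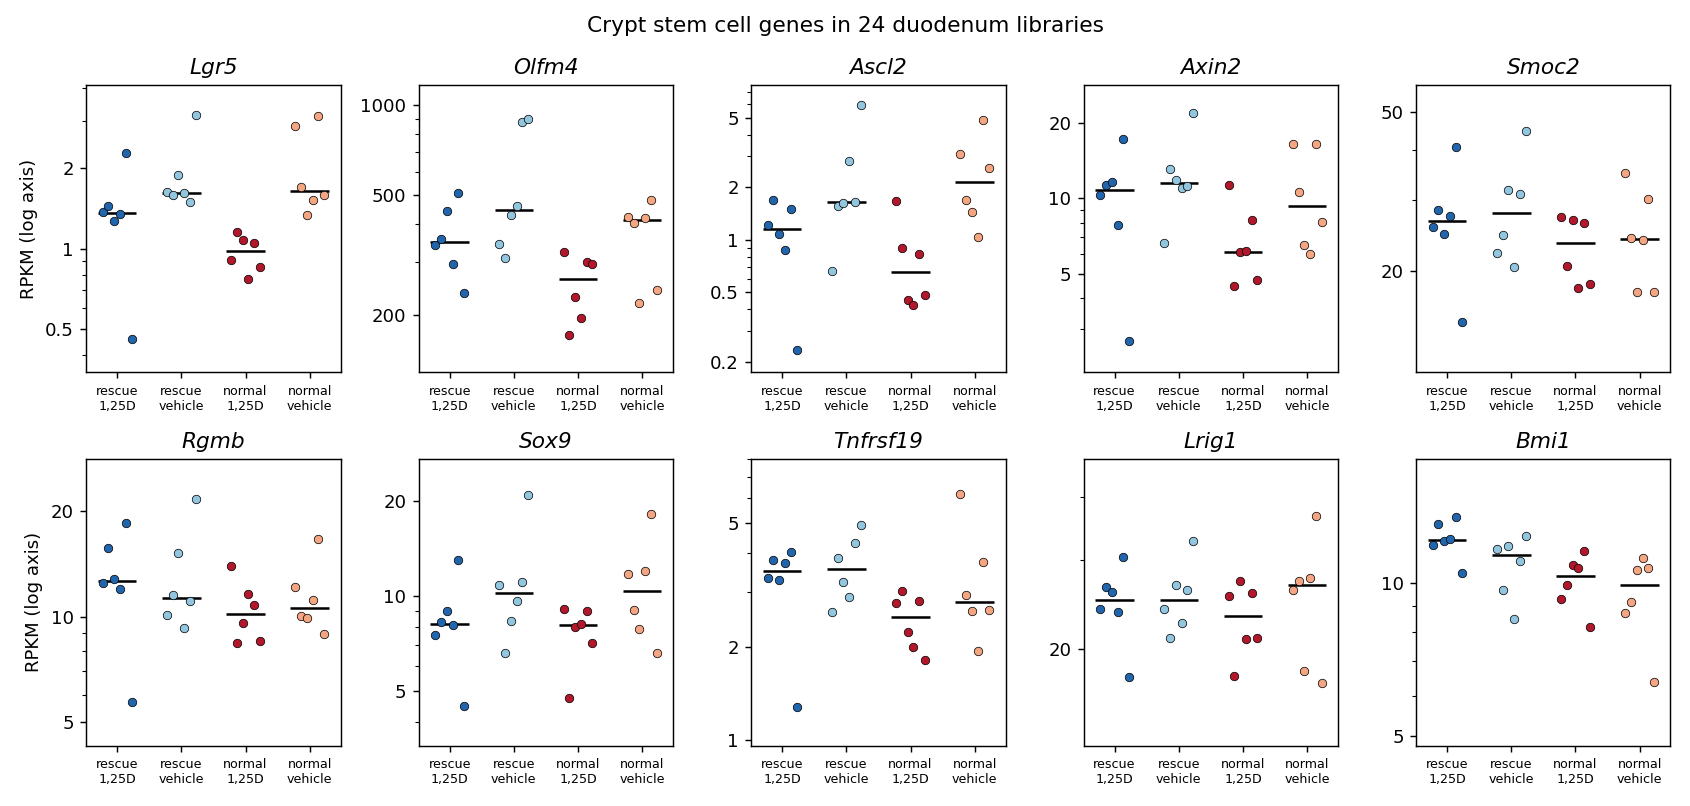
RPKM of the 10 members on log axes, 1 panel per gene, with 1 point per library (n = 6 per group) and a line at the group median. Lgr5 is the member without overlap on the normal diet, at most 1.16 RPKM after 1,25D and at least 1.33 RPKM after vehicle.

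On the rescue diet the same 9 members were below 0 after 1,25D, and Bmi1 was again above 0, but none passed. The count below 0 was 5 of 10 when rescue 1,25D replicate 6 was left out, with Smoc2 (0.04), Rgmb (0.16), Tnfrsf19 (0.02) and Lrig1 (0.04) then above 0, and 6 of 10 when rescue vehicle replicate 6 was left out. Of 10 members, 0 were called, where 0.145% of all genes were, and 0 had an unadjusted p under 0.05, where 4.83% of all genes had. Lgr5 had 0.462, 1.36 and 2.28 RPKM after 1,25D and 1.50, 1.62 and 3.15 RPKM after vehicle. The groups overlapped, and the log2 fold change was -0.39 (SE 0.22, interval -0.84 to 0.06, adjusted p 0.878). Ascl2 had 0.233, 1.15 and 1.68 RPKM after 1,25D and 0.666, 1.64 and 5.93 RPKM after vehicle, a log2 fold change of -0.72 (SE 0.35, interval -1.44 to 0.01, adjusted p 0.878).

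Olfm4 on the rescue diet had 236, 348 and 508 RPKM after 1,25D and 310, 446 and 898 RPKM after vehicle. Its log2 fold change was -0.52 (SE 0.27, interval -1.07 to 0.03, adjusted p 0.878), beside -0.51 on the normal diet. Over 13 alternative settings it ran from -0.56 to -0.42 on the rescue diet. Rescue vehicle replicates 5 and 6, at 878 and 898 RPKM, lay far above the rest of that group, which reached 461 RPKM. Axin2 had 2.71, 10.8 and 17.3 RPKM after 1,25D and 6.64, 11.5 and 21.8 RPKM after vehicle, a log2 fold change of -0.38 (interval -1.07 to 0.31). In Olfm4 and Axin2 the median of each group lay within the range of the other group. Sox9 was at -0.37, Tnfrsf19 at -0.18, Smoc2 at -0.12, and Rgmb and Lrig1 each at -0.05, while Bmi1 was at 0.17 (interval -0.09 to 0.43). The median over the members was -0.28, beside 0.06 over all genes. Without rescue 1,25D replicate 6 the members' median was -0.02, beside 0.10 over all genes, with Axin2 at -0.07 and Sox9 at -0.22. Without rescue vehicle replicate 6 it was -0.14, beside 0.08, with Axin2 at -0.21 and Sox9 at -0.18. With array weights it was -0.13, beside 0.09, and 7 members lay below 0. When the libraries were rescaled to the sum without exocrine pancreas genes, 7 rather than 9 members lay below 0 on this diet, Rgmb and Lrig1 both moving to 0.03.

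**Figure D3:**
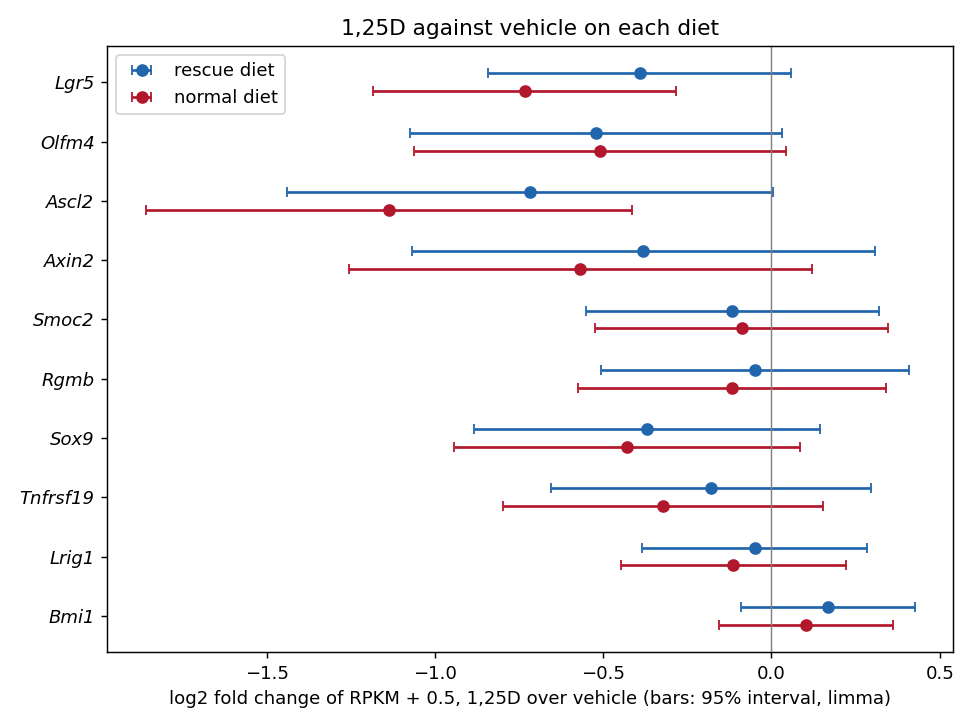
Log2 fold change of RPKM + 0.5 for 1,25D over vehicle, with 95% intervals from limma, for each member on the rescue diet (blue, upper) and the normal diet (red, lower). On both diets 9 of 10 points lie left of 0 (on the rescue diet 7 with scaling to the sum without pancreas genes or with array weights, and 5 without rescue 1,25D replicate 6), and on the normal diet the intervals of Lgr5 and Ascl2 do not reach 0.

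An interaction term set the effect of 1,25D on the rescue diet against that on the normal diet. It was called for 0 of 10 members, where 0.00500% of all genes were called and 6.85% had an unadjusted p under 0.05, which 0 members had. For Lgr5 it was 0.34 on the log2 scale (interval -0.30 to 0.98, adjusted p 0.957) and for Ascl2 0.42 (interval -0.60 to 1.44, adjusted p 0.962). For Olfm4 it was -0.01 (interval -0.79 to 0.77). The intervals are wide, so these data do not show that 1,25D acted alike on both diets, and they do not show a difference either. The averages over both diets were also taken from the same fit, a contrast chosen after the values were seen. In that average Ascl2 had a log2 fold change of -0.93 (SE 0.25, interval -1.44 to -0.42, adjusted p 0.0663) and Lgr5 of -0.56 (SE 0.15, interval -0.88 to -0.24, adjusted p 0.0778). Olfm4 was at -0.52 (interval -0.91 to -0.13, adjusted p 0.278) and Sox9 at -0.40 (interval -0.76 to -0.04, adjusted p 0.430). None of the 10 members was called in this average, where 1.28% of all genes were, and 4 were lower at an unadjusted p under 0.05, where 2.33% of all genes were.

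Whether Lgr5 and Ascl2 passed depended on the scaling and weighting of the libraries. On the normal diet Lgr5 was called with median-of-ratios scaling of the RPKM (adjusted p 0.0374), with array weights (adjusted p 0.0269) and when rescue 1,25D replicate 6 was left out (adjusted p 0.0389). In the average over both diets both genes were called with quantile normalization, median-of-ratios scaling and array weights. Without normal vehicle replicate 6 and rescue 1,25D replicate 4 together, Lgr5 was at -0.78 on the normal diet (adjusted p 0.0933) and Ascl2 at -1.10 (adjusted p 0.166). The direction of Lgr5, Ascl2, Olfm4 and Axin2 was the same under every alternative run for 1,25D on each diet. No run left out rescue 1,25D replicate 6 and rescue vehicle replicate 6 together, the libraries at the ends for most members. Whether the directions on the rescue diet hold without both was not tested.

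Between diets, rescue against normal, no member passed. After vehicle, 0 of 10 members were called, and 0% of all genes were. At an unadjusted p under 0.05 there were 0 members, where 7.18% of all genes had such a p. After 1,25D, 0 of 10 were called, where 0.0100% of all genes were. Olfm4 was at 0.53 after vehicle (interval -0.02 to 1.08, adjusted p 0.711) and at 0.52 after 1,25D (interval -0.04 to 1.07, adjusted p 0.634). After vehicle its median was 446 RPKM on the rescue diet and 413 RPKM on the normal diet, and the groups overlapped. Bmi1 averaged 12.2 ± 1.05 RPKM on the rescue diet and 10.1 ± 1.21 RPKM on the normal diet after 1,25D (SD, n = 6 each), a log2 fold change of 0.26 (interval 0.01 to 0.52, adjusted p 0.582), and was the only member with an unadjusted p under 0.05, where 5.17% of all genes were higher by that rule. The members' median was 0.16 after vehicle and 0.27 after 1,25D, beside 0.10 and 0.12 over all genes. Under quantile normalization the median of all genes moved to 0.0044 after vehicle, and that of the members to 0.02. The diet comparisons use the same libraries as the 1,25D comparisons, so the values are given side by side and not counted as separate evidence.

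The members varied together from library to library within a group, Bmi1 least. After removing group means, the 36 pairs among the other 9 members had Pearson correlations of 0.47 to 0.88 with a median of 0.74 over 24 libraries, while the 9 pairs with Bmi1 ranged from 0.02 to 0.61 with a median of 0.37. The highest were Sox9 with Lrig1 at 0.88, Axin2 with Rgmb at 0.87 and Lgr5 with Smoc2 at 0.86. These points share library, depth and tissue composition, so they are a description only. A pair of libraries lay at the ends: rescue 1,25D replicate 6 had the lowest value of all 24 libraries for 7 of the 10 members and the lowest in its group for all 10, and rescue vehicle replicate 6 had the highest of 24 for 7 and the highest in its group for all 10. For 1,25D against vehicle on the rescue diet, the log2 fold change of Lgr5 was -0.21 without the 1,25D library and -0.26 without the vehicle library. That of Ascl2 was -0.51 without the 1,25D library and -0.44 without the vehicle library.

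Markers of other compartments moved with or against the members in these libraries. The summed level of 20 villus enterocyte genes was 11480 RPKM in rescue 1,25D replicate 6, the highest in its group, where the median was 5327 and the lowest 2195. In rescue vehicle replicate 6 it was 2983 RPKM, the lowest in its group, where the median was 8684 and the highest 14360. Within groups, the mean log2 level of the 9 members correlated at -0.71 with that of the villus genes, at 0.92 with 25 other crypt stem cell genes, at 0.74 with 20 genes of proliferating crypt cells, at 0.68 with fibroblast genes and at 0.49 with smooth muscle genes, over 24 libraries. The Wnt signal chain was at 0.81, Wnt targets at 0.82, Notch at 0.80, Polycomb complex 1 at 0.71, BMP at 0.69 and Paneth genes at 0.47. Exocrine pancreas genes, at -0.04, and general epithelial genes, at 0.21, moved with them less. So did ErbB genes, at 0.02, goblet, enteroendocrine and tuft cell genes, at -0.13, and genes of Brunner's gland and stomach, at 0.15. Normal vehicle replicate 6, with 20.9% of its RPKM from pancreas genes, had the lowest sums of all 24 libraries for several of these lists. Its Wnt signal chain sum was 454 RPKM, where its group median was 728, and its Notch sum 86.9 RPKM, where that median was 157. How far this library shaped the correlations was not tested.

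**Figure D4:**
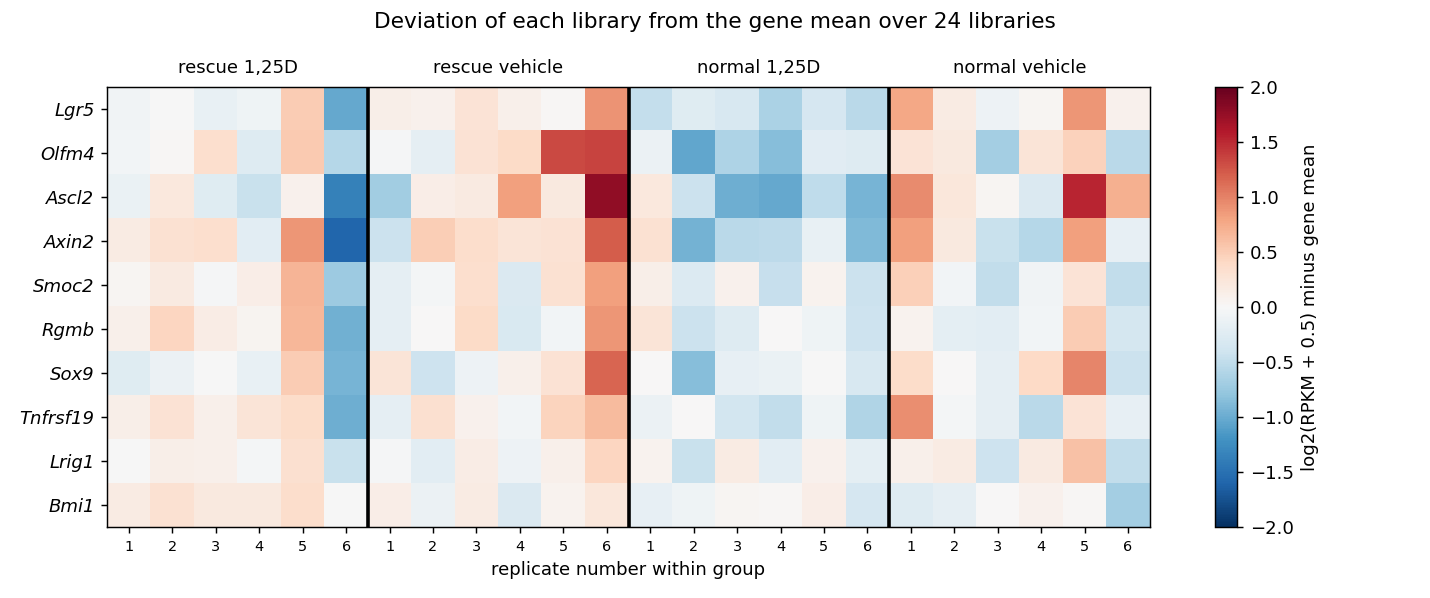
Log2(RPKM + 0.5) of each member (rows) in each library (columns, by group and replicate number) minus the mean of the gene over 24 libraries, red above and blue below the mean. Rescue 1,25D replicate 6 is the bluest column and rescue vehicle replicate 6 the reddest, while the row of Bmi1 varies least.

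The same markers also differed between the groups compared. On the normal diet the villus sum had a lowest, median and highest value of 8291, 11580 and 15510 RPKM after 1,25D and 3403, 5820 and 7938 RPKM after vehicle, without overlap. All 20 villus genes were above 0, with a median log2 fold change of 1.04, and 3 rose, where 1.78% of all tested genes did: Lct, the lactase (3.25, SE 0.70, adjusted p 0.0120), Fabp2, a fatty acid binding protein (1.70, SE 0.37, adjusted p 0.0142), and Treh, the trehalase (1.57, SE 0.41, adjusted p 0.0462). The call of Fabp2 was lost under median-of-ratios scaling. That of Treh was lost under 8 of 13 alternative settings and in 15 of 24 fits that left out 1 library. On the rescue diet the villus sum was 2195, 5327 and 11480 RPKM after 1,25D and 2983, 8684 and 14360 RPKM after vehicle, 19 of 20 villus genes were below 0 (15 to 20 without single libraries, with medians of -0.85 to -0.23), and 0 were called. The median of the villus genes was -0.52 on the rescue diet and 1.04 on the normal diet, while that of the members was below 0 on both. Smooth muscle genes had a median of 0.10 on the rescue diet and -0.41 on the normal diet, with 0 of 13 called on either. Without single libraries the smooth muscle median ran from -0.13 to 0.35 on the rescue diet, lowest without rescue vehicle replicate 5, and from -0.53 to -0.16 on the normal diet. The share of RPKM from exocrine pancreas genes was 0.0106%, 0.411% and 4.16% after 1,25D and 0.472%, 3.31% and 20.9% after vehicle on the normal diet, and the median of that list was -3.39. The part of these cell types in the members' differences was not tested.

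Paneth cells sit between the stem cells at the crypt base. Of 11 Paneth genes 0 were called on either diet, and 10 were below 0 on the rescue diet and 11 on the normal diet, with a median log2 fold change of -0.50 on each. The lectin Itln1 was at -0.51 (adjusted p 0.878) on the rescue diet, and the alpha-defensin Defa5 at -0.96 (adjusted p 0.261) on the normal diet. Defensins are near-copies of each other and can share reads. Of 20 genes of proliferating crypt cells 0 were called on either diet, with medians of 0.03 on the rescue diet and -0.24 on the normal diet. Among them the replication helicase subunit Mcm6 was at 0.53 (adjusted p 0.264) and the cyclin Ccna2 at -0.41 (adjusted p 0.384) on the normal diet. Between diets all 20 proliferation genes were above 0, with a median of 0.35 after vehicle and 0.45 after 1,25D, beside 0.10 and 0.12 over all genes, again with 0 called. At an unadjusted p under 0.05 in limma, 5 were higher after vehicle, where 7.18% of all genes passed in either direction. After 1,25D 10 were higher by that rule, where 5.17% of all genes were. Without normal vehicle replicate 6, 3 of the 20 proliferation genes were below 0 after vehicle and the median was 0.16.

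The wider crypt stem cell list moved in both directions after 1,25D on the normal diet. Of 25 other genes reported in crypt base or reserve stem cells, 3 rose and 2 fell, where 1.78% of all genes rose and 0.0550% fell, and the median was -0.08 (-0.17 to 0.07 without single libraries). Like the members and the other gene lists, this list was chosen with earlier results of these data known. The shares beside it are therefore a description only. Hopx, a homeodomain protein used to mark cells above the crypt base, had 39.0, 53.2 and 60.9 RPKM after 1,25D and 18.0, 20.9 and 30.7 RPKM after vehicle, without overlap, as 2.13% of all genes were (log2 1.16, SE 0.17, adjusted p 0.000259). Soat1, which esterifies cholesterol, had 27.2, 40.7 and 47.6 RPKM after 1,25D and 14.0, 20.4 and 29.4 RPKM after vehicle (log2 0.89, SE 0.19, adjusted p 0.0107). The urea transporter Slc14a1 rose by 1.19 (SE 0.30, adjusted p 0.0372), a call lost under 4 of 13 alternative settings and in 9 of 24 fits that left out 1 library.

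The water channel Aqp4 fell to 4.28, 6.23 and 7.28 RPKM after 1,25D, against 7.45, 14.9 and 21.2 RPKM after vehicle, without overlap, as 0.0850% of all genes were in that direction (log2 -1.06, SE 0.23, adjusted p 0.0138). Nrn1, the neurite growth factor neuritin, had 1.14, 2.38 and 3.68 RPKM after 1,25D and 2.77, 4.87 and 7.11 RPKM after vehicle (log2 -0.94, SE 0.23, adjusted p 0.0312), a call lost in 6 of 24 fits that left out 1 library and when only the normal-diet libraries were fitted. Hopx, Soat1 and Aqp4 were called in every one of these fits and settings. On the rescue diet 0 of the 25 genes were called, with Soat1 at 0.84 (adjusted p 0.0876), Hopx at 0.60 (adjusted p 0.374), Aqp4 at -0.48 (adjusted p 0.878) and Nrn1 at -0.66 (adjusted p 0.754). Each of these kept its sign on the rescue diet, and 3 rose and 2 fell in the average over both diets, the same 5 genes, where 1.19% of all genes rose and 0.0900% fell.

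Pathways that act on the crypt base were followed in the same fit. Among 32 tested genes for Wnt ligands, receptors and the signal chain, 1 rose on the normal diet, where 1.78% of all genes did: Apc, the scaffold that promotes destruction of beta-catenin, with 25.3, 28.7 and 32.4 RPKM after 1,25D and 13.6, 20.5 and 24.2 RPKM after vehicle, without overlap (log2 0.52, SE 0.12, adjusted p 0.0183). Its call was lost under median-of-ratios scaling, when only the normal-diet libraries were fitted and in 3 of 24 fits that left out 1 library (normal 1,25D replicate 3, 4 or 6). Of 17 other Wnt target genes 0 were called, the lowest p belonging to the transcription factor Jun (0.36, adjusted p 0.389). Of 17 Notch pathway genes 0 were called, with the ligand Jag2 at 0.39 (adjusted p 0.343). Of 15 other tested genes for subunits of Polycomb complex 1 in its several forms, 0 were called, with the chromodomain protein Cbx7 at -0.54 (adjusted p 0.121).

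The BMP pathway, in which Rgmb is a co-receptor, had 3 of 21 genes higher on the normal diet and 0 lower, where 1.78% of all genes were higher and 0.0550% lower. This list too was chosen with earlier results of these data known, so the shares are a description only. The ligand Bmp2 had 6.47, 6.94 and 8.57 RPKM after 1,25D and 3.67, 4.34 and 4.65 RPKM after vehicle (log2 0.73, SE 0.13, adjusted p 0.00149). Neo1, the receptor neogenin that binds Rgmb and its relatives, had 13.7, 17.0 and 18.3 RPKM after 1,25D and 6.76, 10.4 and 13.3 RPKM after vehicle (log2 0.68, SE 0.13, adjusted p 0.00284). In both genes every library after 1,25D exceeded every library after vehicle, as in 2.13% of all genes. The inhibitory Smad7 rose by 0.57 (SE 0.15, adjusted p 0.0412), a call lost under 8 of 13 settings and in 10 of 24 fits that left out 1 library. On the rescue diet 0 of 21 were called, with Neo1 at 0.47 (adjusted p 0.281) and Bmp2 at 0.24 (adjusted p 0.878).

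Lrig1 limits signalling by ErbB receptors. Of 18 genes for these receptors, their ligands and feedback inhibitors, 0 were called on either diet, but the ligands Ereg and Areg were close. Ereg had 3.17, 16.2 and 22.6 RPKM after 1,25D and 3.41, 5.47 and 6.77 RPKM after vehicle on the normal diet (log2 1.31, SE 0.37, adjusted p 0.0669), and the lowest library after 1,25D lay below every vehicle library. Areg was at 1.91 (SE 0.54, adjusted p 0.0701). In the average over both diets both ligands rose, where 1.19% of all genes did, Ereg by 1.12 (adjusted p 0.0218) and Areg by 1.64 (adjusted p 0.0226), calls that were lost for both when the libraries normal vehicle replicate 6 and rescue 1,25D replicate 4 were left out together. The call of Areg was also lost in 2 of 24 fits that left out 1 library, rescue 1,25D replicate 3 or rescue vehicle replicate 5.

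**Figure D5:**
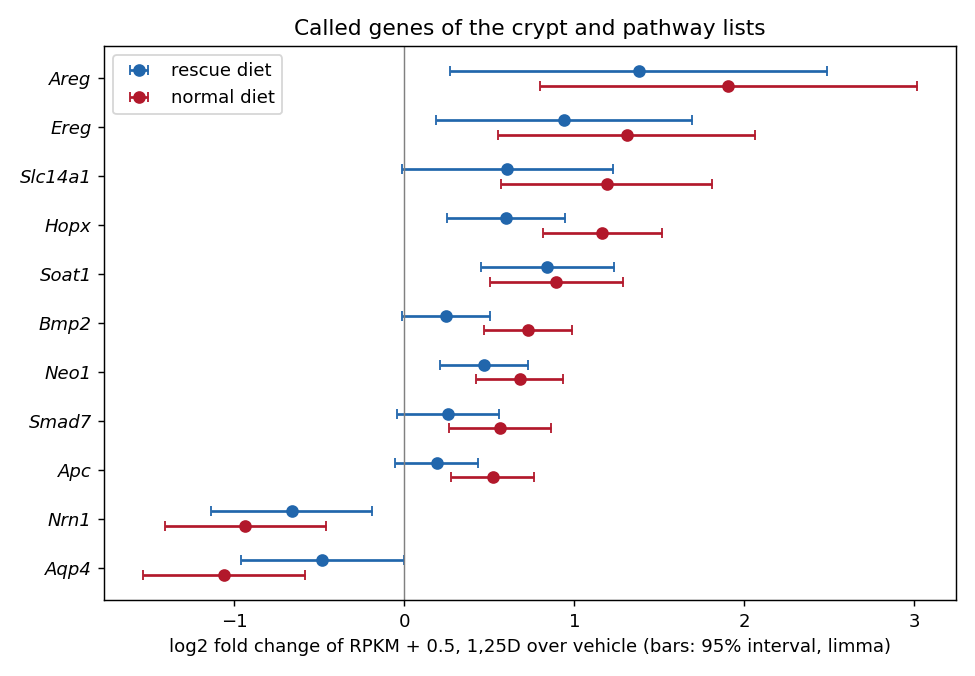
Log2 fold change of RPKM + 0.5 for 1,25D over vehicle, with 95% intervals from limma, on the rescue diet (blue, upper) and the normal diet (red, lower), for genes of the other crypt, Wnt, BMP and ErbB lists called on the normal diet or in the average over both diets. Aqp4 and Nrn1 lie left of 0 and the others right of it on both diets.

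By likeness to Lgr5 over all 24 libraries, among 15713 genes that are no members and average at least 1 RPKM, Kank1 (Pearson r 0.88), Bcam (0.88), Cbx6 (0.86), Gvin1 (0.86), Nrm (0.86), Gm4070 (0.86), Nav2 (0.86) and Tns4 (0.85) were closest. Gvin1 and Gm4070 had nearly equal levels and may share reads, so their split is uncertain. The lowest r belonged to Gramd1c (-0.90) and Sgk2 (-0.86). Ranked in the same way, Ascl2 came 9th of 15722 genes, Axin2 16th, Tnfrsf19 37th, Sox9 48th, Smoc2 120th, Rgmb 229th, Olfm4 392nd, Lrig1 456th and Bmi1 8092nd. This order includes differences between the groups. After removing group means the order among members was another, with Smoc2 at 0.86, Axin2 at 0.82, Rgmb and Tnfrsf19 each at 0.81 and Ascl2 at 0.75.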

How the data were processed

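RNA sequencing of duodenum in 24 libraries, 6 per group, was analysed from 1 table per library. DNase treatment, ribosomal RNA depletion and directional library construction came before sequencing, per the labels' protocols. The submitters' processing notes name TopHat and mm9; which program quantified the genes, with what annotation and versions, is not given in the sources used here. RPKM values made by the authors were taken as deposited, per the file headers. Rows that shared 1 of the 25410 symbols were summed, which merges isoforms. Since the reference genome is of another build, coordinates are given only for the RefSeq windows.

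Log2(RPKM + 0.5) was tested two-sided by limma 3.58.1 (R 4.3.3) with a mean-variance trend for the 20006 genes with 0.5 RPKM or more in at least 6 of 24 libraries. All libraries entered 1 fit with 20 residual degrees of freedom, and calls needed an adjusted p (Benjamini-Hochberg, over every gene tested) below 0.05. The method was tested on simulated data. Relative depth was estimated from the spacing of low values in 1137 rarely detected rows, and 43.5% of 276 pairs of libraries came within 0.05 (log2) of it, so it is approximate. Named genes are the 10 members, genes called in each list or else up to 2 with the smallest p, and the 8 highest and 2 lowest by correlation with Lgr5. The members and gene lists were chosen with earlier results of these data known. Alternatives covered the pseudocount, filter, scaling, library weights, trend, rows, threshold, samples in the fit, the replicate number as a block and leaving out each library. Python 3.11.15, numpy 2.4.6, pandas 2.3.3 and matplotlib 3.10.9 were used for tables and figures.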

Additional observations from a re-analysis of the deposited data

Results flagged for a closer look

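In 3 of 40 combinations of member and group, 1 library stood far from the other 5 by Dixon's criterion on the gap over the range, which chance alone meets in about 1 in 20 groups. Lgr5 in rescue vehicle replicate 6 was 3.146 RPKM, where the other 5 libraries of the group lay between 1.50 and 1.88. Sox9 in the same library was 20.878 RPKM, where the others ranged from 6.60 to 11.1. Tnfrsf19 in rescue 1,25D replicate 6 was 1.279 RPKM, where the others ranged from 3.26 to 4.03.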

How the results depend on the processing

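Calls of members moved with the scaling of the libraries. For 1,25D against vehicle on the normal diet 1 member, Lgr5, was called with median-of-ratios scaling, with array weights and at an adjusted p under 0.1, against 0 as reported. Leaving out each library in turn gave 0 to 1 calls. In the average over both diets 2 members, Lgr5 and Ascl2, were called with quantile normalization, median-of-ratios scaling, array weights and at an adjusted p under 0.1, and leaving out single libraries gave 0 to 1. Lgr5 was then called without rescue 1,25D replicate 5 (adjusted p 0.0250), and Ascl2 without normal vehicle replicate 4 (0.0378), normal 1,25D replicate 1 (0.0405) or rescue vehicle replicate 1 (0.0236). The other 4 comparisons stayed at 0 called members throughout. Normal-diet calls over all genes were 357 higher and 11 lower as reported, 231 and 93 with quantile normalization, 219 and 81 with median-of-ratios scaling and 210 and 49 with scaling without pancreas genes. Counts over all genes moved most with array weights, to 1287 against 2 as reported for diet after 1,25D, to 32 against 1 for the interaction, to 90 against 29 for 1,25D on the rescue diet and to 470 against 256 for the average. The rescue-diet count was 52 with quantile normalization, 45 with pancreas-free scaling, 19 without the trend and 11 from its own groups, and 12 to 48 without single libraries. Without normal vehicle replicate 6 and rescue 1,25D replicate 4 together, diet after 1,25D had 57 calls and the interaction 11.

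The labels do not say that a replicate number marks a shared animal or day, and correlations of same-numbered libraries ran from -0.37 to 0.35, so the numbers were not taken as pairs. With the replicate number as a block, 0 members were called in all 6 comparisons, and counts over all genes were 334, 25 and 236 for 1,25D on the normal diet, on the rescue diet and on average, and 0, 1 and 1 for diet after vehicle, diet after 1,25D and the interaction.

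No member was called in any comparison as reported, so a reversed direction could only concern a member that was not called. The cause of the reversals was not tested. For 1,25D on the normal diet Bmi1 moved to -0.0008 without the 2 libraries named above. For 1,25D on the rescue diet Rgmb moved to 0.0293 with pancreas-free scaling and 0.0829 with array weights, and Lrig1 to 0.031 and 0.0103. For diet after vehicle Sox9 moved to -0.11 with quantile normalization, -0.10 with median-of-ratios scaling, -0.12 with pancreas-free scaling, -0.17 with array weights and -0.10 without the 2 libraries, and Lrig1 to -0.13, -0.10, -0.12, -0.0812 and -0.069. Sox9 moved to -0.0017 for diet after 1,25D with median-of-ratios scaling. For the interaction, in the same order of settings, Olfm4 moved to 0.0813, 0.0309, 0.16, 0.20 and 0.15, and Smoc2 to 0.15, 0.0138, 0.14, 0.10 and 0.0426.

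Leaving out single libraries also turned directions. The ranges were -0.18 to 0.0182 for Smoc2 and -0.0008 to 0.16 for Bmi1 for 1,25D on the normal diet, and -0.24 to 0.0385 for Smoc2, -0.17 to 0.16 for Rgmb, -0.26 to 0.0216 for Tnfrsf19 and -0.11 to 0.0415 for Lrig1 on the rescue diet. For Rgmb in the average over both diets the range was -0.14 to 0.0189. For diet after vehicle it was -0.19 to 0.0566 for Lgr5, -0.40 to 0.10 for Ascl2, -0.17 to 0.18 for Sox9 and -0.069 to 0.15 for Lrig1, and for diet after 1,25D -0.0471 to 0.24 for Sox9. For the interaction it was -0.15 to 0.15 for Olfm4, -0.16 to 0.13 for Smoc2, -0.0485 to 0.27 for Rgmb, -0.10 to 0.25 for Sox9, -0.0325 to 0.35 for Tnfrsf19 and -0.0487 to 0.17 for Lrig1. Absolute depth is unknown, so counting error cannot be given for the low values of Lgr5 and Ascl2.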

Other observations

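Other cell types that arise from the crypt were measured in the same libraries. Of 16 tested genes of goblet, enteroendocrine and tuft cells, 0 were called after 1,25D on either diet. On the rescue diet 13 of them were below 0, with a median log2 fold change of -0.19, and on the normal diet 15 were above 0, with a median of 0.30. The gut hormone Cck was at 0.64 (adjusted p 0.128) and the goblet cell gene Clca3 at 0.75 (adjusted p 0.158) on the normal diet.

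Of 18 general epithelial genes 0 were called, with medians of -0.11 on the rescue diet and 0.07 on the normal diet. Of 11 fibroblast genes 0 were called, with medians of 0.15 on the rescue diet and -0.06 on the normal diet. Of 4 tested genes of Brunner's gland and stomach 0 were called.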
